A study of Rattus norvegicus and Bos taurus with 12 samples.

Results

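The 10 genes described here encode elastin, microfibril proteins, fibulins and tenascin-X, which build the elastic fiber or associate with it. They are Eln, Fbn1, Efemp1, Efemp2, Fbln1, Fbln2, Fbln5, Mfap4, Mfap5 and Tnxb. They were looked up by symbol in the 2 tables of the study, one of bovine right ventricular cardiac fibroblasts (Cfib) and one of adult rat ventricular myocytes (ARVM). Of the 10, 7 were among the 2115 genes listed for Cfib and 8 among the 7052 listed for ARVM. 6 genes were in both tables, Tnxb only in that of Cfib, and Fbn1 and Efemp2 only in that of ARVM. Fbln2 was in neither. The authors listed only genes that had passed their own test between the groups, so absence from a table does not show that a transcript was unchanged, and the presence of a gene is itself part of their result.

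The Cfib came from the right ventricles of neonatal calves and were sequenced as 3 control libraries (CO Cfib, calves kept at ambient Denver altitude) and 3 libraries from calves with pulmonary hypertension (PH Cfib, calves kept at reduced atmospheric pressure). Both groups were cultured cells of low passage, grown in serum and then kept in serum-free medium. The ARVM came from healthy adult Sprague Dawley rats and were sequenced as 3 freshly isolated preparations and 3 preparations kept for 7 days in PH-CM, the medium conditioned by PH Cfib. In the sample labels the treatment is entered as cow serum, from low altitude for the controls and from high altitude for the others, whereas the series design and the paper describe the cells and media given here. ARVM cultured in another medium were not analysed here, so time in culture and medium cannot be told apart. The Cfib libraries came from separate animals, per the paper. Nothing in the labels says that the ARVM libraries came from separate animals, so their p-values measure the spread between these libraries, which may be technical.

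Elastic fibers give stretched tissue its recoil. Elastin, the rubber-like core protein, is secreted as soluble tropoelastin and laid down on a scaffold of microfibrils whose main protein is fibrillin-1. Fibulins bind tropoelastin, fibrillin and the cross-linking enzymes of the lysyl oxidase family, and fibroblasts and smooth muscle cells are the usual makers of these proteins in the heart and its vessels.

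The depth of the Cfib libraries is unknown, because the values keep no trace of whole reads. Among the 100 lowest values of a Cfib library 99 or 100 were distinct, whereas a library of ARVM had 4 to 7 distinct values there. The Cfib values were taken to be scaled by gene length, as FPKM or TPM are, although the paper describes normalized counts, and every comparison of levels between genes in Cfib rests on that reading. For ARVM, 12122463 to 18842171 reads per library were recovered on the listed genes. Of 12 fibroblast markers, 3 were listed for Cfib (COL1A2, POSTN and TCF21), all called higher in PH Cfib, beside 58.2% of all listed genes. Of 14 cardiomyocyte markers none was listed, so the table cannot show their level. In ARVM, 13 of 14 cardiomyocyte markers were listed, none of them at 0 in either group. Their summed normalized count ran from 1837990 to 1872930 in freshly isolated and from 194740 to 237554 in PH-CM ARVM. Of the 13, 12 were called lower and 1 higher, beside 43.7% and 53.9% of all listed genes. The higher one was Myh7 (log2 fold change 0.49).

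In PH Cfib, all 7 listed genes of the elastic fiber were higher than in CO Cfib. EFEMP1 and TNXB had the largest rises, 49.8-fold and 28.9-fold between the group means, followed by MFAP4 at 9.14-fold, FBLN5 at 4.21-fold and FBLN1 at 3.68-fold. ELN and MFAP5 had the smallest, 1.68-fold and 1.42-fold. The 7 passed limma's moderated test on log2(value + 1) at an adjusted p under 0.05, and in each of them the 3 PH libraries lay above the 3 CO libraries. Of all listed genes, 58.2% were called higher and 59.7% were higher without overlap between the groups. The latter are all of the genes with a positive log2 fold change. Since the genes were listed for this difference, nothing is read from the count. The median log2 fold change of the 7 was 2.03, beside 0.33 over all listed genes and 0.72 over the 1262 with a positive log2 fold change. With 3 libraries a group, the smallest p that exact permutation of a single gene allows is 0.1 (two-sided). The PH libraries lay closer together than the CO libraries, with a coefficient of variation of 2.25% to 8.14% for the 7 genes beside 10% to 25.2% (medians over all listed genes, 5.01% and 13.7%).

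Genes used as markers of other cell types also differed between the Cfib groups. Over all listed genes, 58.2% were called higher and 39.4% lower. Of 8 smooth muscle and pericyte markers, 5 were listed, 4 called higher and 1 (CNN1) lower. Their summed signal ran from 97.4 to 133 in CO Cfib and from 225 to 236 in PH Cfib, 2.09-fold between the means. ACTA2 made up most of it, with a mean of 86.6 in a sum of 110 in CO Cfib and of 202 in 229 in PH Cfib. Per the paper, fibroblasts that turn into myofibroblasts also make its protein, α-smooth muscle actin. Of 10 macrophage markers, 4 were listed, 3 called higher and 1 lower, with sums from 7.76 to 11.03 and from 9.47 to 10.06. The macrophage sum was 1.04-fold between the means. C1QA and C1QB, genes of complement C1q, were at 0 in all CO libraries and had means of 2.44 and 1.64 in PH Cfib. CD68 went from a mean of 2.24 to 3.61, whereas CD14 fell from 7.12 to 2.01. The 3 listed fibroblast markers summed to between 1885 and 2547 in CO Cfib and between 6044 and 6351 in PH Cfib, 2.87-fold between the means. The part of any such cells in the rise of the elastic fiber genes was not tested.

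ELN, the elastin gene, had a length-scaled signal of 30.2, 24.5 and 32.1 in CO Cfib 1, 2 and 3 and of 49.9, 48.0 and 48.0 in PH Cfib 1, 2 and 3. The PH libraries were nearly equal and the lowest of them stood above the highest CO library. On the log2 scale ELN was higher by 0.74 ± 0.10 (SE; limma, adjusted p = 0.000678). With libraries rescaled to a common median ratio the rise was 0.45 (limma, adjusted p = 0.00599).

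Of the microfibril genes, MFAP5, which encodes a small glycoprotein that binds fibrillin, had a signal of 108, 90.2 and 108 in CO Cfib and of 145, 139 and 151 in PH Cfib. The rise of 0.51 ± 0.09 (log2, SE; limma, adjusted p = 0.00166) was the smallest of the 7. The call was lost when libraries were rescaled to a common median ratio (0.22, limma, adjusted p = 0.0512). Over the alternatives the adjusted p of limma ran from 0.000739 to 0.0572, the highest being with the PH libraries averaged into 1 sample, where the log2 fold change stayed at 0.51 and the spread came from the CO libraries alone. MFAP4, a fibrinogen-like glycoprotein that binds tropoelastin and fibrillin, had a signal of 8.09, 6.09 and 6.84 in CO Cfib and of 68.9, 63.4 and 59.7 in PH Cfib. The groups were far apart, 3.03 ± 0.11 on the log2 scale (SE; limma, adjusted p = 3.69e-06). FBN1, the gene of fibrillin-1, was not listed for Cfib.

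Among the fibulins, EFEMP1 (fibulin-3) had a signal of 13.1, 9.53 and 10.2 in CO Cfib and of 582, 531 and 519 in PH Cfib. The rise of 5.52 (log2, 95% interval 5.24 to 5.81; limma, adjusted p = 8.03e-07) was in place 3 of the 2115 listed genes. FBLN1, which encodes a fibulin found both in elastic fibers and in blood plasma, had a signal of 109, 120 and 80.3 in CO Cfib and of 370, 390 and 378 in PH Cfib. CO Cfib 3 was the lowest library, and without it the log2 fold change was 1.72 in place of 1.89 ± 0.15 (SE; limma, adjusted p = 6.06e-05). FBLN5, whose protein carries tropoelastin to the microfibril, had a signal of 21.4, 18.1 and 16.1 in CO Cfib and of 82.3, 76.3 and 76.2 in PH Cfib. FBLN5 was thus higher by 2.03 ± 0.10 (log2, SE; limma, adjusted p = 1.19e-05). EFEMP2, the gene of fibulin-4, was not listed for Cfib.

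TNXB encodes tenascin-X, a large glycoprotein that associates with collagen and elastic fibers. Its signal was 1.97, 1.38 and 1.24 in CO Cfib and 47.5, 44.6 and 40.4 in PH Cfib. It was the lowest of the 7 in both groups, and in PH Cfib its highest library was just under the lowest of ELN. TNXB was higher by 4.17 (log2, 95% interval 3.86 to 4.47; limma, adjusted p = 2.05e-06), or by 4.79 at a pseudocount of 0.1 and 2.23 at 10. In the human genome TNXB has a partial duplicate and overlaps a neighbor on the other strand. How the authors' bovine counting treats such reads was not given in the sources used here, and TNXB is uncertain to that extent.

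**Figure D1:**
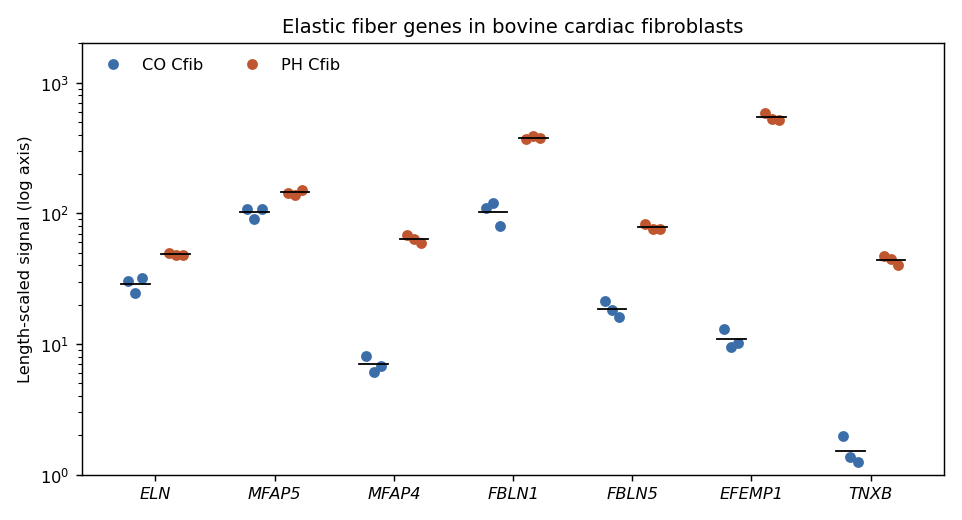
Length-scaled signal (log axis) of the 7 listed elastic fiber genes in bovine Cfib, with 1 point per library and a bar at the mean of 3 libraries. The groups do not overlap in any of the 7 genes, nor in any of the 1262 listed genes with a positive log2 fold change. The gap is widest for EFEMP1 (10.9 in CO Cfib, 544 in PH Cfib) and narrowest for MFAP5 (102 and 145).

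The unequal rises changed the order of the transcripts. Levels are compared here between genes on the reading that the Cfib signal is scaled by gene length. In CO Cfib, FBLN1 (103 ± 20.7, SD, n = 3) and MFAP5 (102 ± 10.2) were highest and their libraries overlapped. ELN (29.0 ± 3.96), FBLN5 (18.6 ± 2.67), EFEMP1 (10.9 ± 1.89), MFAP4 (7.0 ± 1.01) and TNXB (1.53 ± 0.385) followed, each without overlap with the next. In PH Cfib, EFEMP1 was first at 544 ± 33.3, ahead of FBLN1 (380 ± 10.02) and MFAP5 (145 ± 5.93). FBLN5 (78.3 ± 3.48), MFAP4 (64.0 ± 4.64), ELN (48.6 ± 1.09) and TNXB (44.2 ± 3.59) came after, again without overlap between neighbors in the order.

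Taken as a sum over the 7 genes, the signal went from 272 ± 19.1 (SD, n = 3) to 1304 ± 37.6, 4.79-fold more in PH Cfib. EFEMP1 made up 4.0% ± 0.474 of that sum in CO Cfib and 41.7% ± 1.35 in PH Cfib. The share of MFAP5 was 37.6% ± 4.46 in CO Cfib and 11.1% ± 0.649 in PH Cfib, and that of ELN was 10.7% ± 1.80 and 3.73% ± 0.0362. FBLN5 held 6.80% ± 0.497 and 6.0% ± 0.109. These shares are descriptions of the levels above and were not tested.

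**Figure D2:**
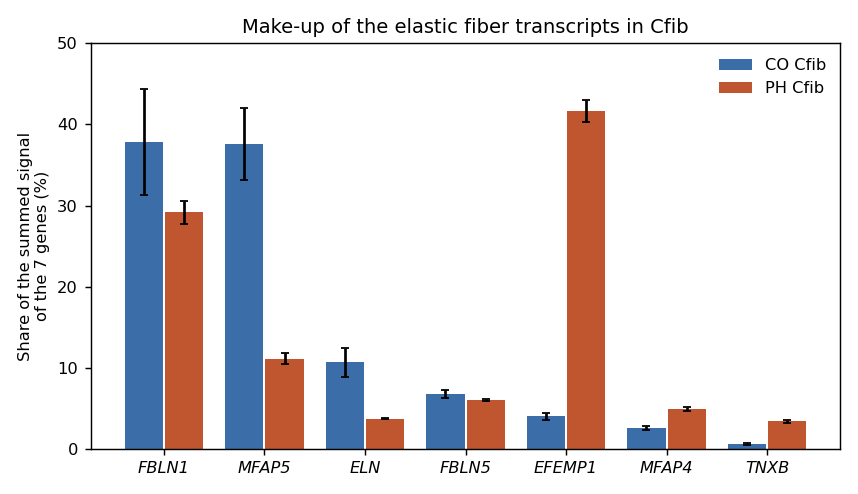
Share of each gene in the summed length-scaled signal of the 7 listed elastic fiber genes in Cfib (bars, mean of 3 libraries; error bars, SD). EFEMP1 had 4.0% in CO Cfib and 41.7% in PH Cfib, whereas MFAP5 had 37.6% and 11.1%.

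In ARVM kept in PH-CM, all 8 listed genes of the elastic fiber were higher than in freshly isolated ARVM. Mfap5 had no read in any freshly isolated library and was at least 527-fold higher, Mfap4 was 150-fold higher and Efemp1 38.3-fold. Fbn1 was 28.9-fold, Efemp2 20.7-fold, Eln 16.2-fold, Fbln1 14.2-fold and Fbln5 7.92-fold higher between the group means. Without freshly isolated ARVM 4, the fold of Eln was 25.1. All 8 passed limma at an adjusted p under 0.05, with no overlap between the groups. Over all listed genes, 53.9% were called higher and 55.1% were higher without overlap, the latter being all genes with a positive log2 fold change. Again the list was made from this difference. The median log2 fold change of the 8 was 4.63, also with Mfap5 set at its bound, beside 0.37 over all listed genes and 1.34 over the 3887 with a positive log2 fold change. Values are normalized counts, made by dividing the reads of each library by its own size factor. They are not scaled by gene length, so levels are compared here between libraries and not between genes. In such bulk samples, fewer cells of a type and less RNA per cell cannot be told apart.

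Eln had a normalized count of 83.9, 36.4 and 26.9 in freshly isolated ARVM 4, 5 and 6, from 53, 34 and 26 reads. In the PH-CM libraries, which the labels number ha2, ha209 and ha211, it had 857, 509 and 1013. The freshly isolated library numbered 4 was the highest of its group and still far below the PH-CM libraries. Eln was higher by 4.10 (log2, 95% interval 3.09 to 5.10; limma, adjusted p = 6.46e-05).

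Fbn1, the gene of fibrillin-1 and so of the microfibril's backbone, had a normalized count of 138, 167 and 144 in freshly isolated and of 4253, 3671 and 5036 in PH-CM ARVM. The rise of 4.84 (log2) had the narrowest 95% interval of the 8, 4.53 to 5.14 (limma, adjusted p = 1.05e-07). Mfap5 was at 0 in all 3 freshly isolated libraries and at 534, 405 and 934 in PH-CM ARVM, from 706, 470 and 1104 reads. Its bound was computed against 3 reads over the freshly isolated group and covers counting error only. Mfap4 had 20 reads in freshly isolated ARVM 6 and none in the other 2 freshly isolated libraries, for normalized counts of 0, 0 and 20.7. In PH-CM ARVM it had 958, 641 and 1495. The rise of 8.45 (log2, 95% interval 5.84 to 11.05; limma, adjusted p = 0.000221) was 9.93 without freshly isolated ARVM 6 and 7.71 without 4 or without 5. At pseudocounts of 0.1 and 10 it was 10.68 and 6.08.

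Of the fibulins, Efemp1 had a normalized count of 30.1, 40.7 and 17.6 in freshly isolated and of 1272, 750 and 1363 in PH-CM ARVM. Efemp1 was higher by 5.24 (log2, 95% interval 4.43 to 6.05; limma, adjusted p = 5.26e-06). Efemp2, the gene of fibulin-4, which brings lysyl oxidase to tropoelastin, had 127, 103 and 146 in freshly isolated and 2459, 2163 and 3136 in PH-CM ARVM. Efemp2 was higher by 4.36 ± 0.17 (log2, SE; limma, adjusted p = 4.05e-07). Fbln5 had the smallest rise of the 8, from 31.7, 36.4 and 35.1 to 265, 234 and 319. The freshly isolated libraries agreed closely for this gene, and the rise was 2.94 ± 0.22 (log2, SE; limma, adjusted p = 9.15e-06). Fbln1 had 0, 14 and 16 reads in freshly isolated ARVM, for normalized counts of 0, 15 and 16.5. In PH-CM ARVM it had 150, 88.0 and 209.04. The rise of 4.43 had the largest adjusted p of the 8 (log2, 95% interval 2.0 to 6.86; limma, adjusted p = 0.00433), and was 3.08 without freshly isolated ARVM 4, 5.08 without 5 and 5.14 without 6. At pseudocounts of 0.1 and 10 it was 5.58 and 3.0.

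**Figure D3:**
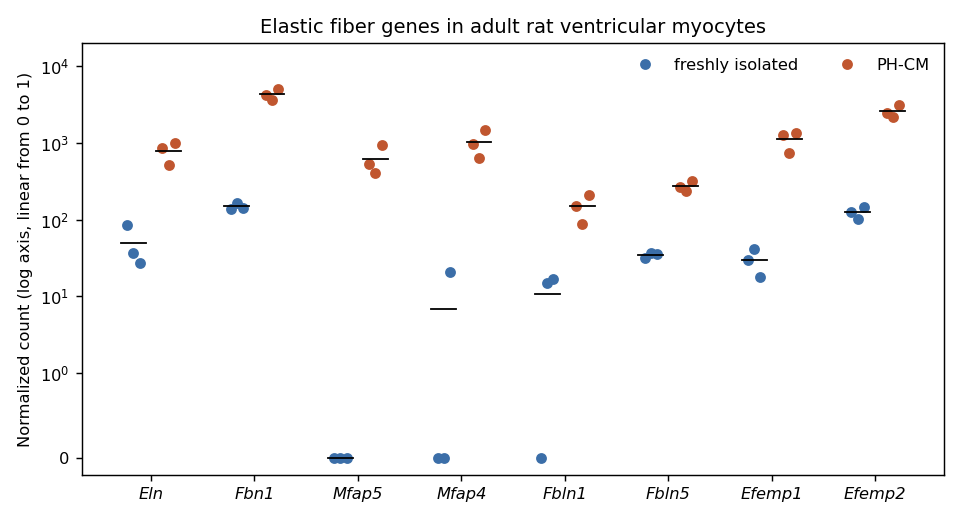
Normalized count of the 8 listed elastic fiber genes in rat ARVM (log axis, linear from 0 to 1), with 1 point per library and a bar at the mean of 3 libraries. The groups do not overlap in any of the 8 genes, nor in any of the 3887 listed genes with a positive log2 fold change. Mfap5 is at 0 in all freshly isolated libraries, Mfap4 in 2 of them and Fbln1 in 1.

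The 12 fibroblast markers moved with these genes. All 12 were listed in ARVM and called higher, beside 53.9% called higher and 43.7% lower over all listed genes. None of the 12 was at 0 in all libraries of a group. Their summed normalized count ran from 5415 to 6941 in freshly isolated ARVM and from 126060 to 184692 in PH-CM ARVM, 24.6-fold between the means, beside 26.9-fold for the sum of the 8 elastic fiber genes (405 ± 5.81 and 10904 ± 2525, SD, n = 3). Of the 8 smooth muscle and pericyte markers, 6 were called higher and 2 lower, with sums from 3947 to 4683 and from 32036 to 50589. Tagln (means of 257 and 21540) and Acta2 (293 and 10007) were the largest parts of the PH-CM sum. The 2 lower ones were Rgs5 (804 and 309) and Cspg4 (1678 and 1217). The 9 listed of 10 macrophage markers were all called higher, with sums from 222 to 319 and from 2774 to 3839, and of the 9 endothelial markers 8 were called lower and 1 higher, with sums from 10393 to 12112 and from 4174 to 4825. The paper reports α-smooth muscle actin and periostin, products of Acta2 and of the fibroblast marker Postn, in the PH-CM-treated myocytes themselves. The part of other cells, or of the myocytes, in the rise of the elastic fiber genes was not tested.

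The PH-CM libraries kept the same order in all 8 genes, with ha209 lowest, ha2 in the middle and ha211 highest. Among all 7052 listed genes 24.6% had this order, and among those higher in PH-CM 35.2%. The ratio of ha211 to ha209 was 1.37 for Fbn1, 1.36 for Fbln5 and 1.45 for Efemp2. It was larger for Efemp1 (1.82), Eln (1.99), Mfap5 (2.30), Mfap4 (2.33) and Fbln1 (2.38). The same ratio was 1.47 for the summed fibroblast markers and 1.11 for the median of the listed genes with a higher mean in PH-CM. Of the 12 fibroblast markers, 7 had the same order of libraries, and their part in it was not tested.

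The sequences before the start sites of 3 rat genes are shown, chosen after their values were seen. Mfap5 had no read in freshly isolated ARVM, Efemp1 had the largest rise in Cfib, and Fbn1 encodes the backbone of the microfibril. They are the 250 bases before the start in RefSeq's GRCr8 assembly, which is not the build of the deposited values, and 6 of the 10 genes were found in that table. Capitals mark matches on either strand to the motifs searched, namely the AP-1 motif TGANTCA, the TEAD motif GGAATG, the GC box GGGCGG, the TATA box TATAAA, the CCAAT box, the E-box CACGTG and the SMAD element CAGAC, which share no overlap in these 3 stretches. Mfap5 lies on the plus strand at chr4:157399669-157399918, Efemp1 on the plus strand at chr14:106811614-106811863 and Fbn1 on the minus strand at chr3:133203391-133203640.
Mfap5: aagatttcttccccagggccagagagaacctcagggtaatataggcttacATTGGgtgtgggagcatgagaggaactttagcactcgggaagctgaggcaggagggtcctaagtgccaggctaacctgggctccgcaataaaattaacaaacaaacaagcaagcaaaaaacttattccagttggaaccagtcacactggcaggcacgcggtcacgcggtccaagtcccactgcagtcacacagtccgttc
Efemp1: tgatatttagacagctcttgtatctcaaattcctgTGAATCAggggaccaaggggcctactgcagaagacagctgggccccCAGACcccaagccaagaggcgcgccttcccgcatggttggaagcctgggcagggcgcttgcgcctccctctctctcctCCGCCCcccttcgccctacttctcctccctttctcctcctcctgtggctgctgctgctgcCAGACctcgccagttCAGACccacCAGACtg
Fbn1: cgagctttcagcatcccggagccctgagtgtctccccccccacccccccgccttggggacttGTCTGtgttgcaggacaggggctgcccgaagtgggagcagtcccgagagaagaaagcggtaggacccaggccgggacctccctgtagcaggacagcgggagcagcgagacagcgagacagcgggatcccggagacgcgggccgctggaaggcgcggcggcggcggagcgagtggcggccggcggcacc

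Mfap5 had 1 match, to CCAAT in reverse at 200 bases before the start, a motif that 34% of all 33469 promoters hold. Efemp1 had 1 match to the AP-1 motif at 215 bases before the start (6.34% of promoters), 1 GC box in reverse (30.5%) and 4 matches to CAGAC (42.9%). Fbn1 had 1 match to CAGAC in reverse. The share of G and C bases was 51.6% for Mfap5, 61.2% for Efemp1 and 71.2% for Fbn1, with a median of 51.2% over all promoters. TEAD, TATA box and E-box letters were in none of the 6 member promoters, beside 12.1%, 12.9% and 5.59% of all promoters. A match is a description of letters and was not related to the expression values.

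Set side by side, the 6 genes listed in both experiments rose by different amounts. EFEMP1 had a log2 fold change of 5.52 in Cfib and 5.24 in ARVM. MFAP4 had 3.03 and 8.45, and MFAP5 0.51 and a fitted 9.20 against a group at 0. The order of Mfap4 and Mfap5 in ARVM turned at a pseudocount of 10 (6.08 and 5.90) and without freshly isolated ARVM 6 (9.93 and 9.20). In the latter case neither gene had a freshly isolated read. ELN had 0.74 and 4.10. In ARVM Eln was below Fbln1, but above it at a pseudocount of 10 (3.83 and 3.0) and without freshly isolated ARVM 4 (4.56 and 3.08). It was also above Fbln1 in the fold of the group means (16.2 and 14.2). On the recovered reads Fbln1 was at 3.66 with edgeR and 3.74 with DESeq2, under the lowest value of Eln over the alternatives (3.76). FBLN5 had 2.03 and 2.94, and FBLN1 1.89 and 4.43. The experiments differ in species, cells and unit, share no samples, and the difference between them was not tested.

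**Figure D4:**
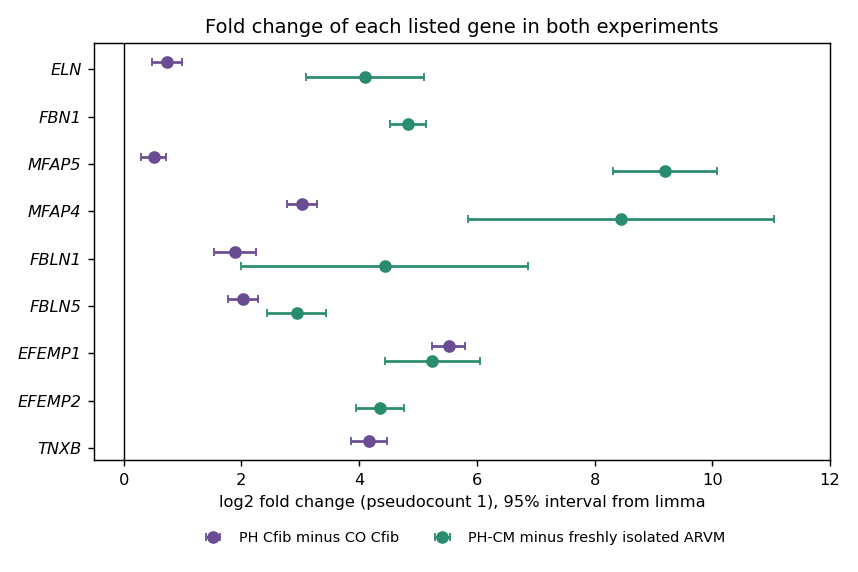
log2 fold change on the log2(value + 1) scale of each listed elastic fiber gene in Cfib and in ARVM (points), with the 95% interval from limma (bars). In Cfib the values run from 0.51 for MFAP5 to 5.52 for EFEMP1 and in ARVM from 2.94 for Fbln5 to 9.20 for Mfap5, the last being a fitted value against a group without reads.

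Genes that act with the elastic fiber were followed in 7 further lists of 61 genes. In Cfib 21 of them were listed, 19 called higher and 2 lower, beside 58.2% higher and 39.4% lower over all listed genes. In ARVM 37 were listed, 35 called higher and 2 lower, beside 53.9% and 43.7%. The genes were listed for such differences and the lists were chosen with earlier results known, so nothing is read from the counts. The median log2 fold change of the companion genes was 1.18 in Cfib and 2.58 in ARVM.

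Of 16 other microfibril and elastin-associated genes, 5 were listed in Cfib, all called higher, with a median log2 fold change of 1.18. FBN2, the fibrillin of developing tissue, went from 0.0979 ± 0.0421 (SD, n = 3) to 3.20 ± 0.0678, and its log2 fold change of 1.94 was 4.09 at a pseudocount of 0.1 and 0.39 at 10. MFAP2, the close relative of MFAP5, had 50.1 ± 20.4 and 171 ± 7.78, and ADAMTS10, a secreted protein that binds fibrillin-1, 13.1 ± 4.77 and 29.8 ± 2.69. In ARVM 8 of 16 were listed, all called higher, with a median of 4.05 (3.91 with the 2 genes without freshly isolated reads at their bounds). Fbn2 had no freshly isolated read and was at least 63.0-fold higher, at 74.6 ± 10.6 in PH-CM ARVM. Ltbp2, a latent TGF-beta binding protein of the microfibril, had 136 ± 22.4 and 5305 ± 427, and Mfap2 had 2.14 in 1 freshly isolated library, none in the others, and 43.4 ± 12.9 in PH-CM ARVM.

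Of 9 genes for elastin cross-linking and copper supply, 5 were listed in Cfib and called higher (median log2 fold change 1.03). LOX, lysyl oxidase, had 169, 138 and 40.4 in CO Cfib and 608, 538 and 504 in PH Cfib, with CO Cfib 3 far below the other CO libraries. Its log2 fold change was 2.47, and 1.84 without CO Cfib 3. LOXL3 had a log2 fold change of 1.25 and LOXL4 of 1.03. The calls of LOX and LOXL4 were lost with the PH libraries averaged into 1 sample (limma, adjusted p = 0.0783 and 0.0848). In ARVM 6 of 9 were listed and called higher (median 4.09). Loxl1, the lysyl oxidase that binds fibulin-5, had reads in 1 freshly isolated library, where it stood at 13.9, and 2255 ± 443 in PH-CM ARVM. Lox likewise had 8.26 in 1 freshly isolated library and 429 ± 96.0 in PH-CM ARVM, and Loxl2 had a log2 fold change of 4.42. That of Loxl1 was 9.82, and 11.12 without freshly isolated ARVM 5 or 9.17 without 4 or 6, and that of Lox was 7.65, and 8.72 without 6.

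Of 10 elastin-degrading proteases, 4 were listed in Cfib, 2 called higher and 2 lower. MMP9 rose by a log2 fold change of 2.65 and MMP12, macrophage elastase, by 2.11, both from CO means under 1. At pseudocounts of 0.1 and 10, MMP9 was at 3.65 and 0.87 and MMP12 at 3.35 and 0.56. Of the 4 listed macrophage markers, C1QA and C1QB rose from 0 in the same libraries and CD68 rose, whereas CD14 fell (log2 fold change −1.42). The summed signal of the 4 was 1.04-fold between the means. The cathepsins fell, CTSK with a log2 fold change of −1.10, from 2004 ± 124 (SD, n = 3) to 932 ± 39.96. In ARVM 7 of 10 were listed and called higher, among them Mmp12 (no freshly isolated read, at least 635-fold higher), Ctss (log2 fold change 5.73, and 4.69 without freshly isolated ARVM 6) and Mmp2 (3.61). Among 7 protease inhibitors, A2M and TIMP3 were listed and called higher in Cfib (1.21 and 1.18), with A2M at 1.86 and 0.29 at pseudocounts of 0.1 and 10. In ARVM 3 were called higher and 2 lower, with A2m at least 125-fold higher from no reads, Timp2 at 2.43 and Timp4 at −3.34.

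The elastin receptor complex and the integrins of elastic fiber proteins were also measured. In Cfib 3 of 9 were listed and called higher, with GLB1 at a log2 fold change of 0.81, NEU1 at 0.78 and ITGB5 at 0.51. In ARVM 5 of 9 were, with Glb1 at 2.90, Itga8 at 2.38 and Ctsa at 1.26. Of 7 TGF-beta family ligands, TGFB3 alone was listed in Cfib, from 4.56 ± 0.502 (SD, n = 3) to 24.7 ± 0.681. In ARVM 5 were listed and called higher, with Tgfb3 at 4.31, Bmp2 at 3.20 (2.46 without freshly isolated ARVM 6) and Gdf15 at 2.52. Of 3 other tenascins, tenascin-C was listed in both, with a log2 fold change of 1.29 for TNC in Cfib and 6.79 for Tnc in ARVM.

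**Figure D5:**
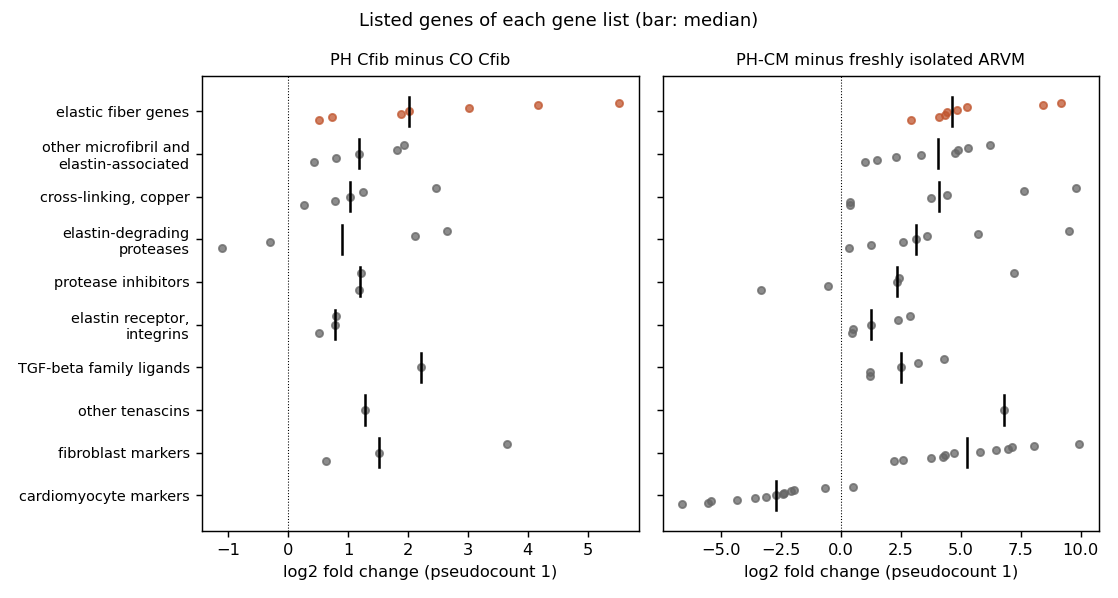
log2 fold change on the log2(value + 1) scale of each listed gene (points) by gene list, with the median of the list (bar), in Cfib (left) and ARVM (right). The elastic fiber genes have medians of 2.03 and 4.63, the fibroblast markers of 1.52 and 5.25, and the cardiomyocyte markers, none of which was listed for Cfib, of −2.73 in ARVM.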

How the data were processed

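RNA was depleted of ribosomal RNA and sequenced by the authors, who aligned it with HISAT2 and StringTie to bosTau8 (bovine) or rn6 (rat) and normalized it with DESeq2. The deposited ARVM signal is a read count divided by 1 size factor per library, and 100% of the values in each library were whole reads within 0.01. The deposited Cfib signal was read as scaled by gene length and library, since it shows no common step, and whether it is FPKM or TPM was not settled. The authors deposited only genes they had selected by p-value, so adjustment over all genes here means over listed genes.

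Within each table, log2(value + 1) of 3 libraries a group was tested by limma 3.58.1 in R 4.3.3, with a mean-variance trend in eBayes. P-values were adjusted after Benjamini-Hochberg and called under 0.05. The recovered ARVM reads were also tested with edgeR 4.0.16 and DESeq2 1.42.0 as alternatives. Python 3.11.15 was used for summaries. The models were tested on simulated data. A bound against a group without reads uses 3 reads over the group. Every listed member was named, and of each of the 7 further lists up to 3 called genes with the largest change. The members and lists were chosen with earlier results of these data known.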

Additional observations from a re-analysis of the deposited data

How the results depend on the processing

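The 8 ARVM genes of the elastic fiber passed the threshold with the same direction under each of the 13 alternatives. In Cfib all 7 kept their direction, and MFAP5 alone lost its call, after rescaling by the median of ratios and with the PH libraries averaged, which left 6 of 7 called in each. With the PH libraries averaged, where the lone sample is assumed to vary like the CO libraries and the log2 fold change of MFAP5 stayed at 0.51, 1038 of the listed Cfib genes were called in place of 2063, 13 of the 21 companion genes were, and LOX (adjusted p = 0.0783 from limma), ADAMTS10, LOXL4, TIMP3 and TNC were among those that lost their call. The adjusted p of LOX ran from 1.08e-05 to 0.0783 over the alternatives. Rescaling by the median of ratios shifted the Cfib log2 fold changes by a median of −0.27, gave 840 genes higher and 869 lower in place of 1230 and 833, and moved the median of the 7 genes from 2.03 to 1.74. A pseudocount of 10 moved that median to 1.80, and a pseudocount of 0.1 moved the ARVM median from 4.63 to 5.07. Leaving out 1 library at a time, that median ran from 1.93 to 2.13 in Cfib and from 4.46 to 5.0 in ARVM. On the recovered reads edgeR called 6815 and DESeq2 6668 of the listed ARVM genes, and both called the 8.

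A replicate block over the numbers 1, 2 and 3 called 1983 Cfib genes and all 7 of the elastic fiber. Same-numbered libraries had correlations of their deviations of 0.258, 0.0312 and 0.259. Libraries with different numbers were not compared, so these values cannot show whether the numbers mark pairs. Per the paper the groups came from different calves, and a pairing was not assumed. The ARVM groups share no replicate numbers. Depth limits Mfap5, Mfap4 and Fbln1 in freshly isolated ARVM, which had at most 20 reads in a library. The Cfib depth is unknown.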

Other observations

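The listed genes whose profile over the 6 libraries lay nearest to that of the most changed elastic fiber gene were looked up in each experiment, by the Euclidean distance between log2(value + 1) profiles centered per gene. For EFEMP1 in Cfib these were ASPN, a small leucine-rich proteoglycan (distance 0.124), ISLR (0.547) and PRSS2 (0.630). ASPN went from 1.08 ± 0.400 (SD, n = 3) to 92.5 ± 4.37. For Mfap5 in ARVM they were Mmp12 (distance 0.618), Col11a1, a minor fibrillar collagen chain (0.883), and Cthrc1, a secreted collagen triple helix repeat protein (1.15). All 3 had no read in freshly isolated ARVM, as Mfap5 did. The likeness is over 6 libraries of 2 groups and is a description.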
